A study of Homo sapiens with 6 samples.

Results

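The inhibitors and feedback regulators of NF-κB were examined in the established human myeloma line RPMI8226 at 6 hr of exposure to GST-PTR1 or GST, each at 100 nM. The 10 genes were chosen by name: NFKBIA, NFKBIB, NFKBIE, NFKBIZ, NFKBID, BCL3, TNFAIP3, TNIP1, TNIP2 and CYLD. Each symbol matched 1 row on a primary chromosome, 10 of the 63677 rows in the deposited count table. GST-PTR1 is the PTR1 domain of HAPLN1, a link protein of the extracellular matrix, joined to glutathione-S-transferase, and the control protein GST is that partner by itself. Both groups were the same wild-type line, each with 3 biological replicates, so the data hold 1 line, 1 dose and 1 time. Both proteins were made in bacteria. The study assayed lipopolysaccharide contamination and reported it to be orders of magnitude under what its NF-κB binding assay detects in these cells.

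NF-κB is a family of dimeric transcription factors that is held in the cytoplasm of resting cells by IκB proteins. Receptor signals activate the IKK kinase complex, which phosphorylates IκB and marks it for ubiquitination and destruction by the proteasome, and the freed dimers enter the nucleus. Several of the genes that NF-κB then switches on encode its own brakes, among them IκBα, which recaptures the dimers, and A20, a ubiquitin-editing enzyme that acts upstream of IKK. Myeloma cells often carry mutations that keep this pathway on, including losses of CYLD and TRAF3.

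Libraries were stranded and prepared from mRNA, and reads were counted per gene. The 6 libraries are named GST a to c and GST-PTR1 a to c in order of total counts, which ran from 15202503 to 23453473 with GST and from 22874133 to 44688737 with GST-PTR1. Counts were scaled with TMM factors, and levels are given as RPKM (counts scaled to exon length and library size), so that genes of different length can be compared. Differences are log2 fold changes of GST-PTR1 over GST from edgeR's quasi-likelihood test, adjusted by the Benjamini-Hochberg method over 16926 genes. All 7 plasma cell markers were detected, with a summed level of 1220 to 1401 CPM (counts scaled to library size alone) with GST and 1271 to 1283 CPM with GST-PTR1, but single markers differed in opposite directions. In edgeR's quasi-likelihood test SDC1 (log2 fold change -1.03), TNFRSF17 (-1.41) and XBP1 (-0.47) were lower and IRF4 (0.65), PRDM1 (1.35) and SLAMF7 (1.52) higher at an adjusted p under 0.05, while CD38 had a log2 fold change of 0.16 (adjusted p = 0.347). The part of these differences in the results below was not tested. The T cell markers CD3E, CD3D and CD2 had at most 3 counts in every library, as did LYZ among the myeloid markers, and COL1A2 and PDGFRB among the stromal markers. The summed myeloid markers reached 1.32 CPM with GST and 0.718 CPM with GST-PTR1, and the stromal ones 0.522 and 0.404 CPM.

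All 10 genes were higher in the GST-PTR1 libraries (edgeR's quasi-likelihood test, adjusted p under 0.05), a call made for 9.15% of all genes tested. The range over the members was wide, from 1.48-fold for NFKBID to 11.8-fold for NFKBIZ. None was lower, and no member had an unadjusted p under 0.05 in that direction (0 of 10 with edgeR, and 0 of 10 adjusted with DESeq2 or voom), where 11.4% of all genes were called lower, and 3.85% at 2-fold or more. At least 2-fold rises were found for 7 members and for 3.68% of all genes. NFKBIA, NFKBIZ, BCL3, TNFAIP3 and TNIP1, 5 of the 10, also passed an edgeR test that the change exceeds 2-fold, which 2.00% of all genes passed in the higher direction. For all 10 the treated libraries lay above the control libraries without overlap, a separation found for 19.2% of all genes upwards and 21.2% downwards. With 3 libraries against 3, an exact permutation test of a single gene cannot go below p = 0.1, and each member reached that value. The median log2 fold change was 1.53 over the members and 0.01 over all genes tested. Summed over the 10 genes, the level was 80.9 to 91.9 RPKM with GST and 425 to 445 RPKM with GST-PTR1. In bulk RNA, more RNA per cell and more cells expressing a gene cannot be told apart.

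**Figure D1:**
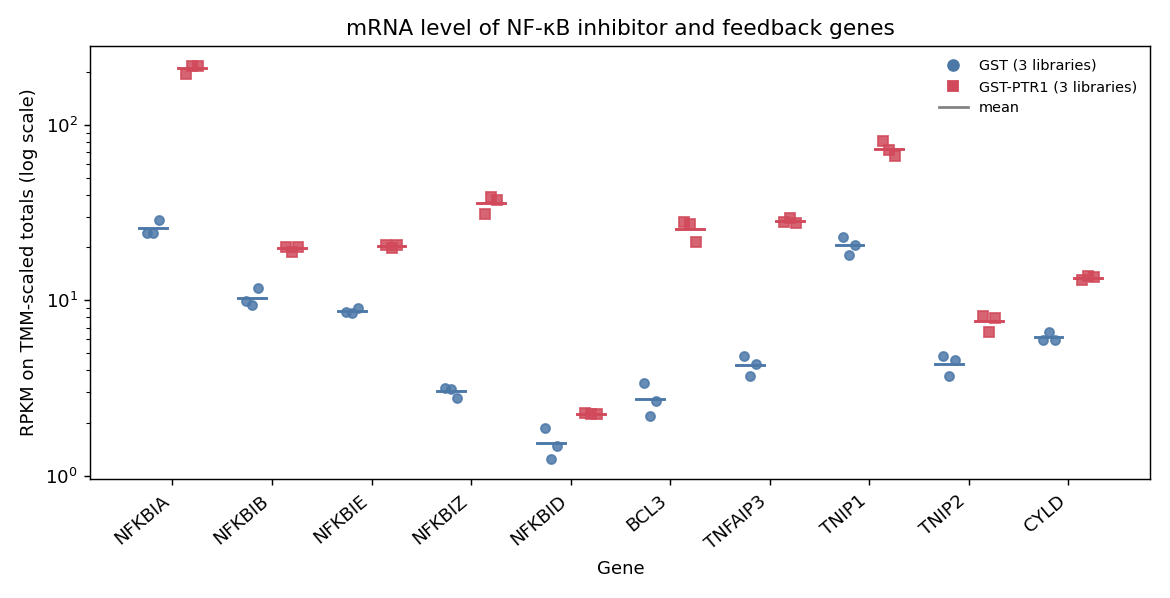
Level of the 10 genes in each library, in RPKM on a log10 axis, with 1 point per library and GST and GST-PTR1 in separate colours. The groups did not overlap for any gene, with NFKBID (1.54 and 2.27 RPKM) the closest pair of means and NFKBIZ (3.04 and 35.7 RPKM) the farthest apart.

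**Figure D2:**
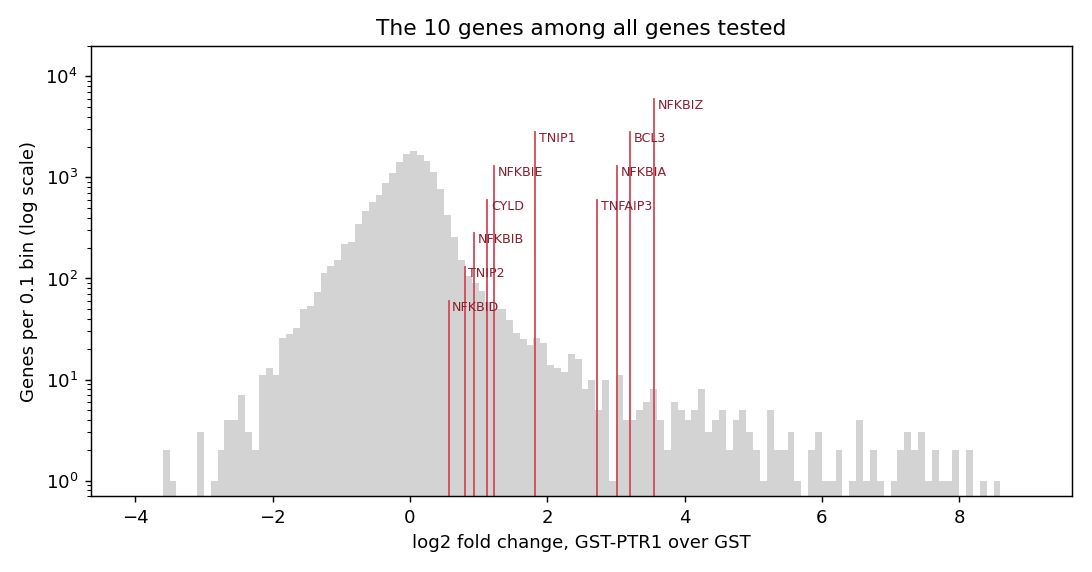
Distribution of log2 fold changes (GST-PTR1 over GST) of the 16926 genes tested, with the 10 members marked. All members lie right of the median of 0.01, and NFKBIZ, BCL3, NFKBIA and TNFAIP3 are within the top 1% of genes.

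Promoter sequences were searched because several of these genes are known as targets of NF-κB, whose dimers bind short κB elements. The genes were chosen as NF-κB inhibitors and feedback regulators, so the share with a match is no separate test of that choice. RefSeq windows on GRCh38.p14, 250 bases before to 50 bases after each transcription start, were searched on both strands for the 10-base κB consensus. A related pattern (GGG, any 2 bases, then TTTCC) was searched as well, and its matches in the members all lay inside consensus matches. It allows any base after GGG, where the consensus asks for A or G, so it is not a subset of the consensus. Windows were given for 9 members, not for NFKBIE. The consensus was found in at least 1 window of 8 of the 9, all but TNIP2, and in 7.09% of all genes with a window. Counted by window, it was in 11 of 16 member windows and in 5.91% of all 35116 windows. The related pattern was found in 6 of the 9, against 2.33% of genes. A match describes letters in a window, not binding in these cells. The stretches of those 6 genes are shown on the strand of the gene, 5′ to 3′, in the order described below, with the matches in capitals and up to 30 bases on either side.
NFKBIA, chr14:35404791-35404860 (minus strand): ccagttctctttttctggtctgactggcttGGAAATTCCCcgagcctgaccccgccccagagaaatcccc
NFKBIB, chr19:38899911-38899968 (plus strand): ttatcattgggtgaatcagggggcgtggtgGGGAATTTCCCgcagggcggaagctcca
NFKBIZ, chr3:101827740-101827806 (plus strand): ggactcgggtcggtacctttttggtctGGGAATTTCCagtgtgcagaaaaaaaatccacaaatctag
TNFAIP3, chr6:137867162-137867243 (plus strand): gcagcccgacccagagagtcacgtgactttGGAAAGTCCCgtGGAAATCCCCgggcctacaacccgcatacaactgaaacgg
TNIP1, chr5:151081037-151081106 (minus strand): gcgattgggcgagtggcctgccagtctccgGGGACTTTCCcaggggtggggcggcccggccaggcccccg
CYLD, chr16:50741867-50741936 (plus strand): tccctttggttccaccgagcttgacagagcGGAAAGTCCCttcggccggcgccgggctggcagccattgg
The NFKBIA, NFKBIB and NFKBIZ stretches hold the same 10 letters, GGGAATTTCC, read on 1 strand or the other. TNFAIP3, TNIP1 and CYLD share GGGACTTTCC, and TNFAIP3 has GGGGATTTCC next to it, 2 bases farther on. The capitals of NFKBIB hold a pair of overlapping matches, 1 on each strand. The matches begin 81 bases before the start in NFKBIA, 28 in NFKBIB, 223 in NFKBIZ, 67 and 55 in TNFAIP3, 42 in TNIP1 and 189 in CYLD. These distances are from the start of the window that holds the match. NFKBIB, TNIP1 and CYLD also had a window without any match. NFKBIZ had a further window, with a consensus match (GGGGTTTCCC) 239 bases before its own start. Genes with the same letters differed in response, from 1.91-fold for NFKBIB to 11.8-fold for NFKBIZ. BCL3, with a 9.26-fold rise, had a consensus match (GGGACTTCCC) only in the transcribed part of its window. NFKBID, with the smallest rise, had consensus matches in separate windows with different starts (GGGAGTCCCC and GGGGAATTCC).

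Among the classical IκB genes, which encode the cytoplasmic inhibitors, NFKBIA rose far more than NFKBIB and NFKBIE. NFKBIA (ENSG00000100906, GRCh37 chr14:35870717-35873955, minus strand) encodes IκBα, the inhibitor that is degraded and resynthesized fastest. Its level was 24.3, 24.3 and 28.5 RPKM in GST libraries a to c and 194, 217 and 216 RPKM in GST-PTR1 libraries a to c. Every treated library held several times the highest control value, and the spread within each group was small beside that gap. The means were 25.7 ± 2.45 and 209 ± 13.0 RPKM (SD, n = 3 each), an 8.11-fold rise (95% confidence interval 6.76 to 9.72; log2 fold change 3.02, SE 0.12, adjusted p = 3.39e-08 in edgeR's quasi-likelihood test). A larger log2 fold change was found for 0.898% of genes.

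NFKBIB (ENSG00000104825, chr19:39390340-39399533, plus strand) encodes IκBβ, which also retains Rel dimers in the cytoplasm. It measured 9.88, 9.36 and 11.8 RPKM with GST and 20.2, 19.0 and 20.2 RPKM with GST-PTR1. The treated libraries were nearly alike, and the difference was a log2 fold change of 0.93 (SE 0.12, adjusted p = 0.000282 in the same edgeR test), just under 2-fold. NFKBIE (ENSG00000146232, chr6:44225903-44233500, minus strand) encodes IκBε, a further cytoplasmic inhibitor. It measured 8.56, 8.47 and 9.09 RPKM with GST and 20.6, 19.8 and 20.8 RPKM with GST-PTR1. Libraries of the same treatment were nearly alike and the gap between treatments was far wider than their spread, with a log2 fold change of 1.23 (SE 0.10, adjusted p = 1.01e-05 in the same edgeR test).

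The unequal rises shifted the make-up of the classical IκB transcripts. NFKBIA supplied 56.8%, 57.7% and 57.7% of the summed RPKM of the 3 genes with GST and 82.6%, 84.8% and 84.0% with GST-PTR1. The share of NFKBIB was 23.1% ± 0.856 with GST and 7.98% ± 0.603 with GST-PTR1 (SD, n = 3 each), and that of NFKBIE was 19.5% ± 0.978 and 8.22% ± 0.530. No share overlapped between the groups (exact permutation test, two-sided, p = 0.1 for each, the smallest possible). The shares restate the unequal rises of the 3 genes and are no separate test of them. The lower shares of NFKBIB and NFKBIE went with higher levels of both genes.

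**Figure D3:**
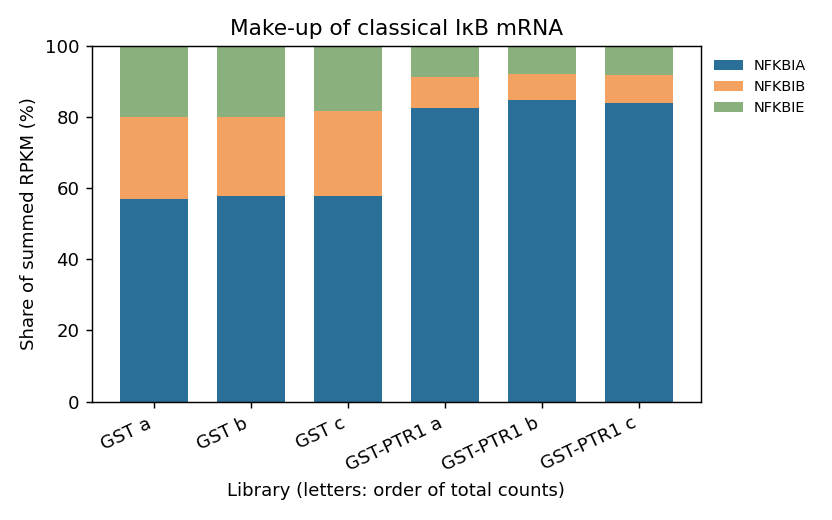
Share of NFKBIA, NFKBIB and NFKBIE in their summed RPKM, in percent, with 1 stacked bar per library and 3 libraries per treatment. NFKBIA fills 56.8% to 57.7% of the GST bars and 82.6% to 84.8% of the GST-PTR1 bars.

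The atypical IκB proteins IκBζ, BCL3 and IκBNS act mainly in the nucleus, where they bind NF-κB on DNA and can raise or lower transcription of chosen targets. Their genes gave both the largest and the smallest rise of the 10. NFKBIZ (ENSG00000144802, chr3:101546835-101579866, plus strand), which encodes IκBζ, a cofactor for a second wave of inflammatory genes, measured 3.19, 3.14 and 2.79 RPKM with GST and 31.0, 38.9 and 37.2 RPKM with GST-PTR1. It was low in all control libraries, and in the treated ones only NFKBIA and TNIP1 were higher among the members. The rise was 11.8-fold (95% confidence interval 9.68 to 14.3; log2 fold change 3.56, SE 0.13, adjusted p = 2.26e-08 in edgeR's quasi-likelihood test). A larger fold change was found for 0.703% of genes. Of its exon bases, 3.29% are shared with NXPE3 on the same strand, and reads there were not counted for either gene.

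BCL3 (ENSG00000069399, chr19:45250962-45263301, plus strand) encodes a partner of p50 and p52 homodimers and is a proto-oncogene of B cell malignancies. It measured 3.41, 2.19 and 2.69 RPKM with GST and 27.9, 27.1 and 21.4 RPKM with GST-PTR1. The lowest treated library, GST-PTR1 c, was still well above every control, and the rise was 9.26-fold (95% confidence interval 7.12 to 12.1; log2 fold change 3.21, SE 0.17, adjusted p = 3.44e-07 in the same edgeR test). NFKBID (ENSG00000167604, chr19:36378555-36393205, minus strand) encodes IκBNS, a nuclear inhibitor with a role in lymphocyte development. It had the lowest level of the group, 1.88, 1.24 and 1.49 RPKM with GST and 2.29, 2.26 and 2.25 RPKM with GST-PTR1. The treated libraries were almost identical while the control libraries were spread, with GST a nearest to the treated ones. Its log2 fold change was 0.57 (SE 0.17, 95% confidence interval 0.18 to 0.95, adjusted p = 0.0409 in the same edgeR test). This call was the only one of the 10 that leaving out a library ended: it was lost without any 1 of 5 libraries (adjusted p 0.0114 to 0.121 over the 6 repeats) and kept without GST a.

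TNFAIP3, TNIP1, TNIP2 and CYLD act on the ubiquitin chains that carry the signal from receptors to IKK. TNFAIP3 (ENSG00000118503, chr6:138188351-138204449, plus strand) encodes A20, which edits and binds such chains and is inactivated in several B cell lymphomas. It measured 4.80, 3.72 and 4.36 RPKM with GST and 28.1, 29.6 and 27.6 RPKM with GST-PTR1. The treated libraries agreed closely, and the log2 fold change was 2.73 (SE 0.12, 95% confidence interval 2.47 to 2.99, adjusted p = 7.46e-08 in edgeR's quasi-likelihood test). TNIP1 (ENSG00000145901, chr5:150409506-150473138, minus strand) encodes ABIN-1, an adaptor that brings A20 to ubiquitinated IKK. It measured 22.9, 18.1 and 20.6 RPKM with GST and 80.4, 71.3 and 66.5 RPKM with GST-PTR1. It was already abundant in control cells and rose 3.54-fold (log2 fold change 1.82, SE 0.13, adjusted p = 2.19e-06 in the same edgeR test).

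TNIP2 (ENSG00000168884, chr4:2743375-2758103, minus strand) encodes ABIN-2, a related adaptor that also binds the kinase TPL2. It measured 4.83, 3.70 and 4.57 RPKM with GST and 8.16, 6.63 and 7.97 RPKM with GST-PTR1. Library b was the lowest of each group, and the groups were apart by less than 2-fold (log2 fold change 0.80, SE 0.14, adjusted p = 0.0027 in edgeR's quasi-likelihood test). The letters order libraries by depth and pair nothing. CYLD (ENSG00000083799, chr16:50775961-50835846, plus strand) encodes a deubiquitinase that removes linear and K63-linked chains, a tumour suppressor in myeloma. It measured 5.92, 6.62 and 5.93 RPKM with GST and 13.0, 13.8 and 13.5 RPKM with GST-PTR1. No treated library came near the highest control, and the difference was a log2 fold change of 1.13 (SE 0.10, adjusted p = 1.46e-05 in the same edgeR test).

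The order of the levels differed between treatments. With GST, NFKBIA (25.7 RPKM) and TNIP1 (20.6 RPKM) led, followed by NFKBIB, NFKBIE, CYLD, TNIP2, TNFAIP3, NFKBIZ, BCL3 and NFKBID. Neighbours in that order were separated in every library except TNIP2 and TNFAIP3 (4.37 and 4.29 RPKM) and NFKBIZ and BCL3 (3.04 and 2.76 RPKM), whose ranges overlapped. With GST-PTR1, NFKBIA (209 RPKM) and TNIP1 (72.7 RPKM) still led, but NFKBIZ, TNFAIP3 and BCL3 now came before NFKBIE and NFKBIB. In that group the ranges overlapped for TNFAIP3 and BCL3 (28.4 and 25.5 RPKM) and for NFKBIE and NFKBIB (20.4 and 19.8 RPKM). NFKBID was the lowest in both groups.

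Ratios of 2 genes within a library do not depend on how libraries are scaled, and 8 such ratios were compared. The nuclear NFKBIZ was 1.70, 2.52 and 1.87 times NFKBID per length with GST and 13.5, 17.2 and 16.5 times with GST-PTR1, a log2 difference of 2.97. NFKBIA over RELA, the inhibitor against the subunit it binds best, was 0.960, 1.11 and 1.14 with GST and 6.02, 6.75 and 7.83 with GST-PTR1. Per exon length, the inhibitor transcript was thus close to that of the subunit in control cells and several times higher in all treated libraries. Per exon length, TNFAIP3 over CYLD moved from below 1 in every GST library (0.811, 0.562 and 0.736) to above 1 in every GST-PTR1 library (2.16, 2.13 and 2.04). In counts, TNFAIP3 stayed below CYLD in GST-PTR1 libraries a to c (3138, 4051 and 5466 against 3756, 4898 and 6903). The side of 1 thus depends on the exon lengths, which are 5023 bases for TNFAIP3 and 12963 for CYLD. TNIP1 over TNIP2 had geometric means of 4.71 and 9.60, and TNFAIP3 over TNIP1, the enzyme against its adaptor, moved least, from 0.209 to 0.392. BCL3 over NFKBIB went from 0.264 to 1.28, NFKBIA over NFKBIB from 2.49 to 10.5 and NFKBIA over NFKBIE from 2.95 to 10.2. None of the 8 ratios overlapped between the groups. Exact permutation tests (two-sided) gave p = 0.1 each and 0.1 after Benjamini-Hochberg adjustment over the 8, the smallest possible. Each ratio has the gene with the larger rise as its numerator, so its direction restates the single-gene changes. How often other gene pairs separate in this way was not computed.

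**Figure D4:**
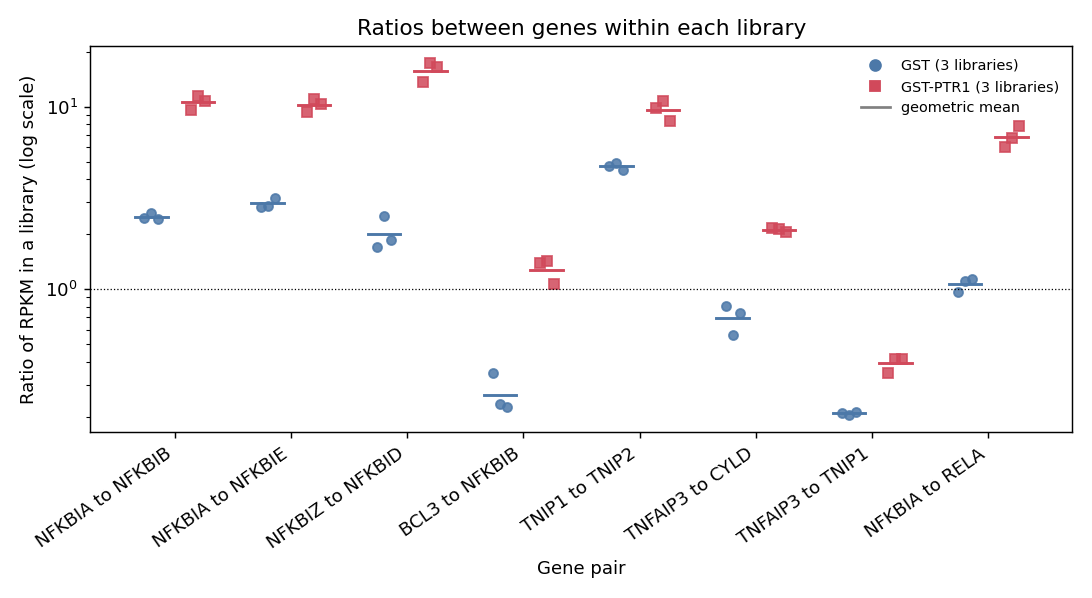
Within-library ratios of RPKM for 8 pairs of genes on a logarithmic axis, with 1 point per library in the colour of its treatment. All 8 were higher in every GST-PTR1 library than in any GST library. In each pair the gene with the larger rise is the numerator, so this direction follows from the single-gene changes. NFKBIZ over NFKBID, the members with the largest and the smallest rise, moved most (2.00 to 15.7). TNFAIP3 over TNIP1 moved least (0.209 to 0.392).

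Other genes of the pathway were taken from 7 lists of 39 genes, of which 37 had a row and 35 were tested. By edgeR's quasi-likelihood test 14 of the 35 were higher (adjusted p under 0.05) and 5 of them at least 2-fold, against 9.15% and 3.68% of all genes tested. Their median log2 fold change was 0.23. None was lower after adjustment (0 of 35 with edgeR, DESeq2 or voom), and 1 was at an unadjusted p under 0.05, the deubiquitinase gene USP21 (log2 fold change -0.32), named after its value was seen. When scaled by library totals, 7 were higher and 1 lower. All 5 subunit genes of NF-κB were higher. NFKB1 and NFKB2, which encode the precursors of p50 and p52, rose from 10.6 to 37.9 and from 22.1 to 93.9 RPKM. RELB rose from 6.47 to 31.5 RPKM, while RELA and REL changed less, with log2 fold changes of 0.35 and 0.66. The call for RELA was lost in 7 of 14 alternative fits and that for REL in 4.

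Of the tested genes in the 5 lists for kinases, ubiquitin enzymes and their adaptors, 6 of 24 were higher, against 9.15% of all genes, and none of the 6 reached 2-fold. Of the tested IKK and TAK1 genes, 1 of 6 was higher, CHUK, which encodes IKKα (log2 fold change 0.42, adjusted p = 0.0175 in edgeR's quasi-likelihood test). LUBAC is the ligase that makes linear ubiquitin chains. None of its 3 genes passed the test in either direction (0 at an unadjusted p under 0.05, and 0 with DESeq2 or voom), with log2 fold changes from -0.22 to 0.16. Of 8 genes of the ligase that ubiquitinates IκB, 2 were higher, UBE2D1 (0.56) and UBE2D3 (0.33), both of which encode E2 enzymes. Of the A20 partners, 1 of 3 was higher, RNF11 (0.77), an adaptor in the A20 complex. Of the other deubiquitinases and adaptors, 2 of 4 were higher, USP15 (0.54) and OTULIN (0.46), which cuts linear chains. The calls for CHUK and OTULIN were lost in 5 and 4 of the 14 alternative fits, and those for UBE2D1 and UBE2D3 in 2 and 7.

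Of the other negative regulators, 3 of 6 were higher. ZC3H12A encodes Regnase-1, an RNase that degrades inflammatory mRNAs, and it rose from 4.92 ± 0.678 to 34.6 ± 1.30 RPKM (SD, n = 3 each). Its log2 fold change of 2.81 (adjusted p = 7.55e-08 in edgeR's quasi-likelihood test) lay within the range of the 4 members with the largest rises. TRAF3, which restrains the noncanonical pathway, rose from 0.563 to 1.13 RPKM (log2 fold change 1.02), and TANK, an adaptor of TRAF proteins, from 4.11 to 5.91 RPKM (0.53, lost in 2 of the 14 alternative fits). TNIP3, the gene of ABIN-3, stayed under the filter, with 0, 1 and 0 counts with GST and 4, 6 and 3 counts with GST-PTR1.

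**Figure D5:**
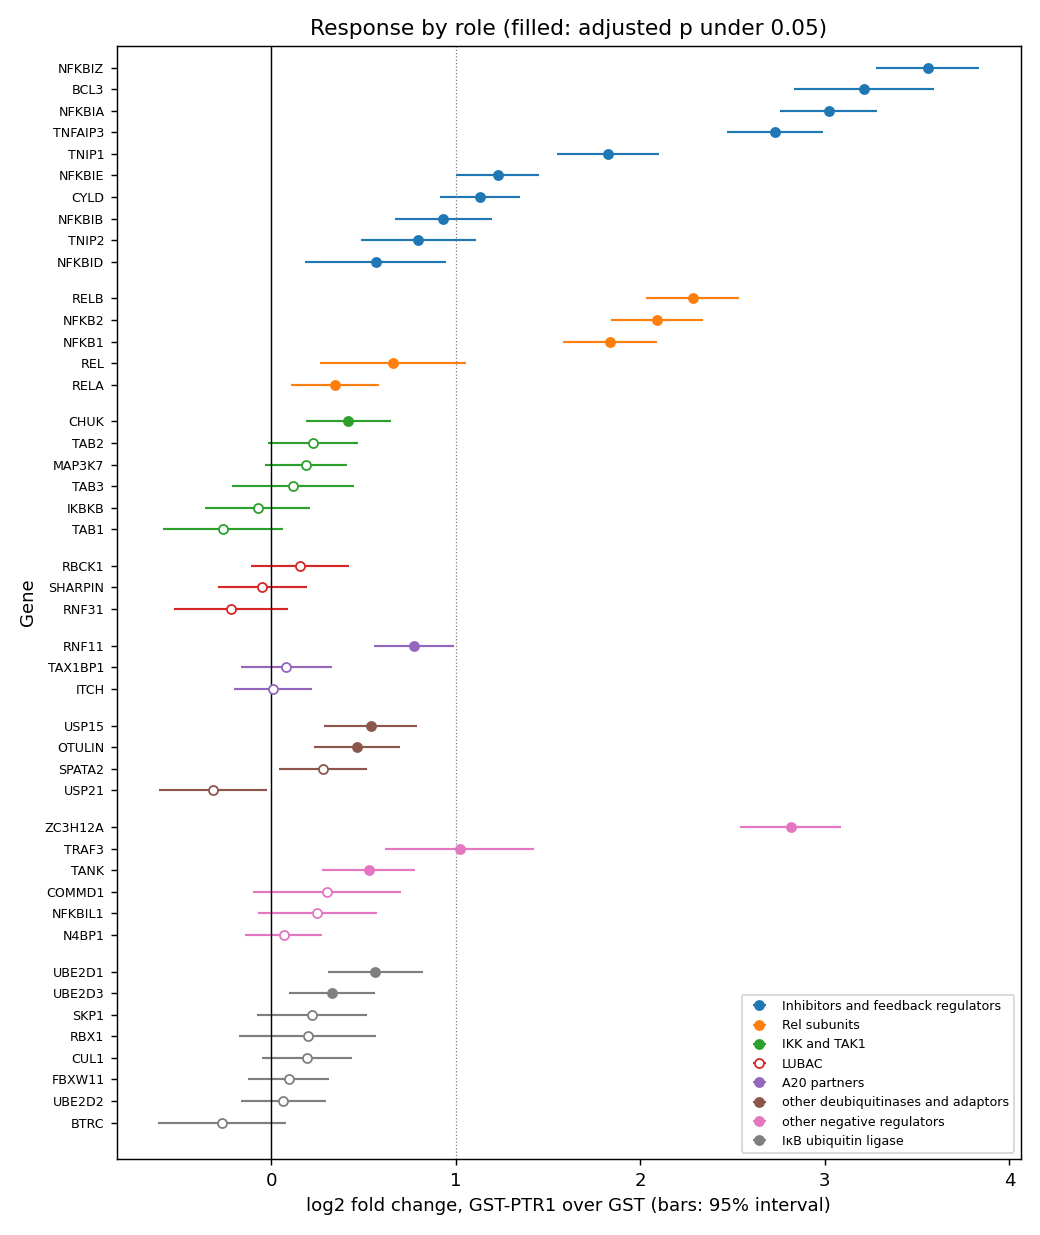
Log2 fold changes (GST-PTR1 over GST) of the 10 members and of the tested genes in 7 other pathway lists. Each gene has 1 point with its 95% confidence interval. Points are filled or open by the adjusted p of edgeR's quasi-likelihood test (threshold 0.05), and list medians are not drawn. The medians of the members (1.53) and the subunits (1.84) lie above those of the LUBAC (-0.05), A20 partner (0.08), IKK and TAK1 (0.15) and IκB ligase (0.20) lists, while single genes overlap, such as RNF11 (0.77) and the member NFKBID (0.57).

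Genes within 100000 bases of a member were compared as well, since position played no part in the choice. Of 90 such genes 30 were tested, with 7 higher and 2 lower (edgeR's quasi-likelihood test, adjusted p under 0.05) and a median log2 fold change of 0.04. These are 23.3% and 6.67% of those tested, against 9.15% and 11.4% of all genes. The filter lets in a gene with enough counts in 1 treatment alone, which favours genes that differ. With at least 10 counts asked in every library, 4 of 25 neighbours were higher, against 1317 of the 15359 genes then tested. Of these neighbours, 1 was at least 2-fold higher. NOD2 (chr16:50727514-50766988), which encodes a sensor of bacterial peptidoglycan, ends 8973 bases before CYLD on the same strand and rose from 2.59 ± 0.468 to 11.2 ± 2.13 CPM (SD, n = 3 each; log2 fold change 2.12, SE 0.20, adjusted p = 3.33e-05). All 3 tested neighbours of CYLD were higher, among them CYLD-AS1 on the opposite strand, with 5, 5 and 9 counts with GST and 18, 27 and 35 with GST-PTR1 (1.55, adjusted p = 0.00637 in the same edgeR test). Near BCL3, 2 of 3 were higher: NECTIN2, a gene of an adhesion molecule, went from 0.403 to 1.53 CPM, and CEACAM16-AS1 from 3, 4 and 1 counts to 23, 31 and 27 counts. CYLD-AS1, NECTIN2 and CEACAM16-AS1 rest on few reads. CCDC69, 87475 bases from TNIP1, was lower at 1.08 against 2.15 CPM (log2 fold change -1.02, adjusted p = 0.0358 in the same edgeR test, lost in 5 of the 14 alternative fits, 4 of them with a library left out).

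The nearest genes did not all follow the member, as 2 pairs named after their values were seen show. NXPE3, which overlaps NFKBIZ on the same strand, fell from 48.9 ± 3.68 to 27.4 ± 1.44 CPM (SD, n = 3 each; log2 fold change -0.83, adjusted p = 0.000333 in edgeR's quasi-likelihood test) where NFKBIZ rose 11.8-fold. WAKMAR2, the only tested neighbour of TNFAIP3, lies on its opposite strand and measured 1.67 CPM with GST and 1.63 CPM with GST-PTR1 (log2 fold change -0.02, adjusted p = 0.962 in the same edgeR test), and its sign turned under other settings.

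Genes whose profile over the 6 libraries was most like NFKBIA or TNFAIP3 were sought among 13360 genes with a mean count of at least 50, by the Euclidean distance of log2 CPM values centred on each gene's own GST mean. Nearest to NFKBIA were MAP3K8 (distance 0.138), which encodes the kinase TPL2, and MIR3142HG (0.286), a host gene of microRNAs. Their log2 fold changes were 3.01 and 2.90, against 3.02 for NFKBIA. Nearest to TNFAIP3 were ZC3H12A (0.204), NABP1 (0.278), which encodes a single-stranded DNA binding protein, and GPR132 (0.303), a G protein-coupled receptor gene, with log2 fold changes of 2.81, 2.60 and 2.61 against 2.73. These genes were also the nearest to each member with library totals or with a prior count of 0.5. Profiles of this kind are set mostly by the size of the difference between the treatments and describe likeness only.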

How the data were processed

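RNA-Seq of RPMI8226 cells (stranded mRNA libraries, 100 nM GST or GST-PTR1 for 6 hr, 3 replicates each) was used. The table deposited by the authors holds raw counts per gene, made with featureCounts 1.5.0-p1 on the Ensembl release 75 annotation of GRCh37. Reads were counted singly on the reverse strand, and reads mapping to several places or several genes were left out, so counts of overlapping exons are incomplete. The aligner is not given in the sources used here. Nothing in the table was normalized.

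Gene symbols were matched by Ensembl identifier for 52181 of 63677 rows. Libraries were assigned to a treatment by column name. CPM and RPKM were computed from the counts, TMM-scaled totals and deposited exon lengths, and 3 counts are worth 0.0761 to 0.18 CPM. This floor covers counting error only. Treatments were compared by edgeR 4.0.16 under R 4.3.3 (TMM, filterByExpr, glmQLFit, glmQLFTest, Benjamini-Hochberg adjustment over all genes tested, no covariates). Single ratios and shares were compared with exact permutation tests in scipy 1.17.1. Tests were checked on simulated counts first. Alternatives were DESeq2 1.42.0 (size factors or test), library totals, voom (limma 3.58.1), 2 count filters, thinning to the smallest total, a test against a fold change of 2, leaving out each library and, added after seeing the data, the 4 libraries with column numbers found in both treatments.

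The members and the lists were chosen with earlier results of these data known. Named genes are the members, the subunit genes, up to 3 genes past the threshold per pathway list, up to 5 neighbours past it at 2-fold or more, and the 3 profiles nearest to NFKBIA and to TNFAIP3, apart from those said to be chosen after their values were seen. A marker list and 1 of the nearest profiles are not reported here. IKBKG and OTUD7B had no matching identifier, and PDLIM2 (2, 5 and 7 counts with GST, 3, 4 and 3 with GST-PTR1) and TNIP3 did not pass the filter. Promoter sequences are RefSeq's on GRCh38.p14, and no coordinates were converted between builds.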

Additional observations from a re-analysis of the deposited data

How the results depend on the processing

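The log2 fold changes of the 10 members were positive in all 14 alternative fits (140 values), and 128 of these kept the call. Apart from NFKBID and the test against a fold change of 2, this was 117 of 117. Under that test, 5 members were higher, and the calls of NFKBIB (0.93), NFKBIE (1.23), NFKBID (0.57), TNIP2 (0.80) and CYLD (1.13) were lost. For NFKBID the call was also lost with library totals (log2 fold change 0.37, adjusted p = 0.166 in edgeR's quasi-likelihood test) and with libraries thinned to the smallest total (0.57, adjusted p = 0.0625 in edgeR's quasi-likelihood test). Leaving out each library gave 0.44 to 0.72 for NFKBID and 9 to 10 members called. Among the pathway genes, 9 to 13 were higher with a library left out, 7 with library totals and 4 against a fold of 2, and 1 was lower with library totals. Of the neighbours, 11 of 61 tested were higher with a filter of at least 1 count in any library, 4 of 25 with at least 10 in every library and 2 of 30 against a fold of 2, beside 7 of 30. Among all genes these fits called 2608 of 31617, 1317 of 15359 and 339 of 16926 higher, beside 1549 of 16926. With that filter of 10 counts, 1 neighbour was at least 2-fold higher, and 2 were against a fold of 2. Lower neighbours numbered 1 to 3 with a library left out, 5 with library totals and 0 against a fold of 2 (edgeR, also 0 at an unadjusted p under 0.05), beside 2 with edgeR's test of any change, DESeq2 or voom. WAKMAR2 had log2 fold changes of 0.00711 with the filter of 1 count, 0.00352 with voom and -0.23 to 0.26 with a library left out. Library totals moved the median of all genes tested from 0.01 to -0.19 and the split of calls from 1549 higher and 1937 lower to 927 and 3788. Apart from the test against a fold, whose construction asks for more, the cause of these changes was not tested. The ratios and shares moved by less than the spread between libraries under every alternative run for them. The numbers in the column names are not the samples' own replicate numbers, so the planned replicate block over all 6 libraries was not run. As 2 of the column numbers occur in both treatments, those 4 libraries were fitted alone, an alternative chosen after seeing the data. With the number as a block 10 members, 11 pathway genes and 7 neighbours were higher, as without the block, and 1603 genes were higher and 1715 lower in all, against 1790 and 1848 without it. On simulated counts the blocked fit recovered 91.2% of changed genes but 18.0% of its calls were false, so its p-values may be too small. The simulation had an assumed block shift and the depths of libraries a and b of each group, where the shared numbers are those of b and c. It thus does not measure the false share in the real fit. Deviations of same-numbered libraries from their group means had Pearson's r across genes of -0.03 and 0.25. For differently numbered libraries r ran from -0.47 (GST a with GST-PTR1 c) to 0.37 (GST a with GST-PTR1 a). The same-numbered values lie inside that range, and no pairing was used. With 3 libraries per group, p-values measure the spread between these libraries only.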
